A study of Mus musculus with 4 samples.

Results

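The C-type lectin receptors of myeloid cells examined here are 6 genes, Clec4n, Clec4d, Clec4e, Clec4a2, Clec7a and Mrc1. They were taken as every probe set whose platform annotation gives only 1 gene symbol and that symbol is among the 6, which found all 6 of the 18194 genes on the array and 9 of its 45101 probe sets. The RNA came from flow-sorted AEC2, the alveolar epithelial cells that make surfactant. The 4 groups were Tlr4-/- mice at 4 days after bleomycin, wild-type mice at 4 days after bleomycin, untreated Tlr4-/- mice and untreated wild-type mice. Each group had 1 Affymetrix array, hybridised with amplified RNA from the cells of 4 to 5 mice that were pooled, so the spread within a group is unknown. Bleomycin injures the alveolar epithelium, and TLR4 is the receptor through which cells sense endotoxin and some products of injured tissue. Age, sex, strain and the nature of the Tlr4 allele are not given in the sources used here. Of the 4 Tlr4 probe sets, 1418163_at was lower in the Tlr4-/- pools, at 6.39 in Tlr4-/- and 9.07 in wild type at day 4, and 7.24 in Tlr4-/- and 8.87 in wild type when untreated. The 1418162_at and 1442827_at probe sets were higher in Tlr4-/- by 0.41 and 0.49 at day 4 and by 0.66 and 0.43 when untreated, and 1430695_at was dim. Where the probes lie relative to the altered part of the gene is not given, so these signals check the label only in part.

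These receptors are membrane proteins that bind sugars or lipids of microbes and of damaged cells through a C-type lectin domain, and they are known from macrophages, monocytes, neutrophils and dendritic cells rather than from epithelium. Clec4n (Dectin-2), Clec4d (MCL) and Clec4e (Mincle) signal through the adaptor Fcer1g, and Clec7a (Dectin-1) through a motif of its own, in each case to the kinase Syk and the Card9, Bcl10 and Malt1 complex. Clec4a2 (DCIR) is an inhibitory member that recruits phosphatases such as Ptpn6, and Mrc1, the mannose receptor CD206, is an endocytic receptor that alveolar macrophages carry in abundance.

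Signals are given as log2 values, and differences between arrays as log2 differences. All 14 listed AEC2 markers on the array lay above the floor of a log2 signal of 7.05, the median over all genes, and the surfactant gene Sftpc read 14.05 in Tlr4-/- and 14.06 in wild type at day 4, and 14.02 in Tlr4-/- and 14.03 in wild type when untreated. Without replicates, the spread was taken from the limma model across all genes, as a standard deviation of 0.23 for a difference between 2 arrays. That value rests on how far the genotypes' responses differed, not on repeated pools. Of the 6 receptors, 4 had a mean over the 4 arrays above the floor and entered the test, while Clec4e and Clec4a2 were dimmer and have values from the fit without the floor. The table held no detection calls, so whether a dim probe set was above background is unknown. The Y-linked gene Eif2s3y was also higher at day 4, by 2.01 in Tlr4-/- and 2.04 in wild type, and Xist differed by -1.27 in Tlr4-/- and -0.62 in wild type. The part of the pools' sex in the results was not tested.

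**Figure D1:**
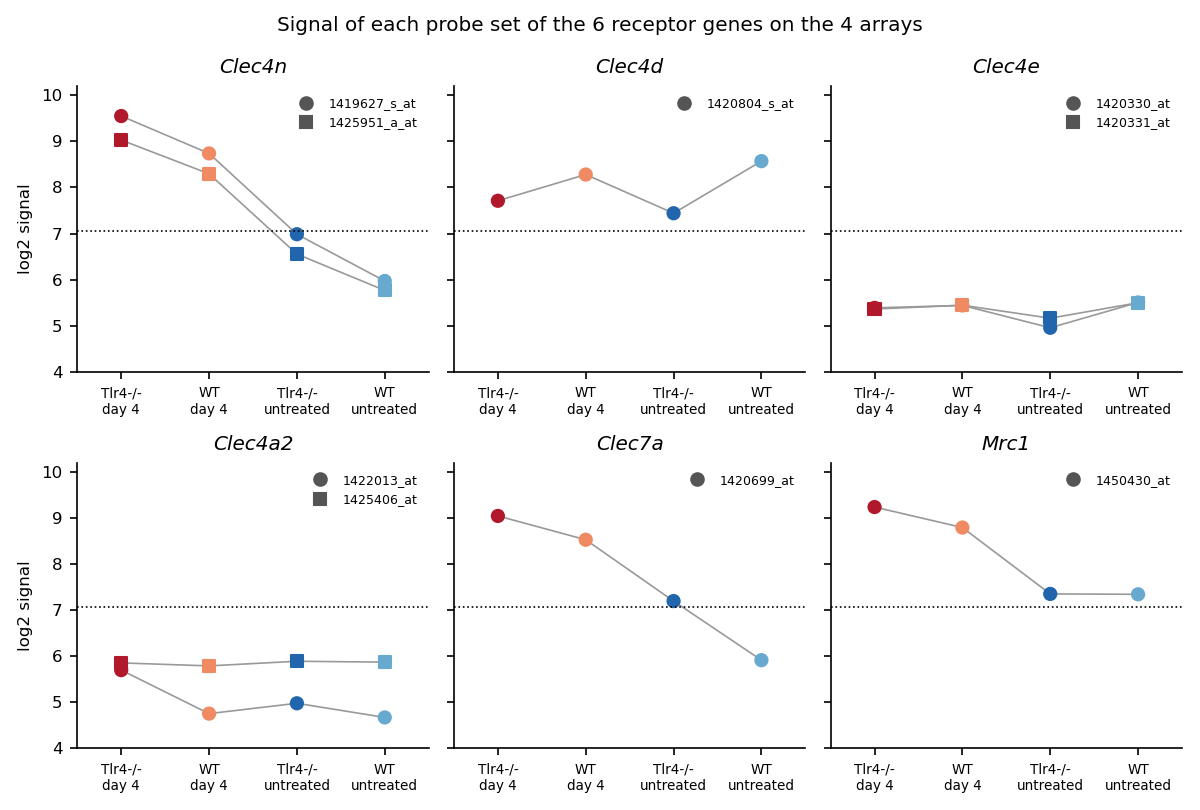
Log2 signal (y axis) of each of the 9 probe sets of the 6 receptor genes on the 4 arrays (x axis), with circles and squares for different probe sets of a gene and lines only to guide the eye. The dotted line marks the floor of 7.05. Clec4n, Clec7a and Mrc1 are higher on both day 4 arrays than on both untreated arrays, Clec4d is lower on both Tlr4-/- arrays, and the probe sets of Clec4e and Clec4a2 stay below the floor on every array.

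After bleomycin the receptors split into 3 genes that rose several-fold in both genotypes, Clec4n, Clec7a and Mrc1, and 3 that were not called. Across both genotypes limma called 3 of the 4 receptors tested as risen and 0 as fallen. Of all 9097 genes tested, 7.18% rose and 2.53% fell. Clec4n and Clec7a passed the floor through their day 4 signals, so the count of those that passed says nothing by itself. In the fit without the floor, where all 6 were tested, the same 3 genes were called. Their limma adjusted p-values were 0.0103, 0.0174 and 0.0174 for Clec4n, Clec7a and Mrc1. That fit called 319 of all 18194 genes as risen and 48 as fallen. Both day 4 signals exceeded both untreated signals for these 3 genes, as they did for 30.4% of all genes tested. At least 2-fold higher after bleomycin were 3 of the 6 in Tlr4-/- and 3 of the 6 in wild type, beside 1.88% and 1.82% of the 18194 genes. The median difference over all 6 receptors was 1.09 in Tlr4-/- and 0.72 in wild type. Each of these medians falls between the 3 genes that rose and the 3 that were not called, and describes neither. Over the 4 receptors above the floor, the order of the genotypes was the other way, at 1.87 in Tlr4-/- and 2.03 in wild type. The medians over all genes tested, all above the floor, were 0.01 and 0.07.

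Clec4n, which recognises fungal mannans, averaged over its 2 probe sets 9.29 in Tlr4-/- and 8.52 in wild type at day 4, against 6.77 in Tlr4-/- and 5.87 in wild type when untreated. Both day 4 signals lay well above both untreated ones. The difference was 5.73-fold in Tlr4-/- and 6.27-fold in wild type, and across both genotypes Clec4n rose by 2.58 ± 0.16 (SE, limma, higher in 2 of 2 genotypes, adjusted p = 2.58e-06), ranking 6 among the 9097 genes. Its probe sets ran in parallel. The 1419627_s_at probe set read 9.55 in Tlr4-/- and 8.74 in wild type at day 4, against 6.98 and 5.97 in the untreated Tlr4-/- and wild-type pools, and 1425951_a_at read 9.03 and 8.30 at day 4, against 6.55 and 5.77.

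Clec7a, the beta-glucan receptor, read 9.04 in Tlr4-/- and 8.52 in wild type at day 4, against 7.19 in Tlr4-/- and 5.91 in wild type when untreated. The day 4 and untreated signals did not overlap, and the 2 untreated pools stood further apart than the 2 day 4 pools. Clec7a was 3.60-fold higher after bleomycin in Tlr4-/- and 6.11-fold in wild type, and rose by 2.23 ± 0.19 across both genotypes (SE, limma, higher in 2 of 2 genotypes, adjusted p = 1.77e-05).

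Mrc1, the endocytic receptor, read 9.23 in Tlr4-/- and 8.79 in wild type at day 4, against 7.35 in Tlr4-/- and 7.34 in wild type when untreated. The untreated pools were nearly equal. Mrc1 was 3.69-fold higher after bleomycin in Tlr4-/- and 2.73-fold in wild type, and rose by 1.67 ± 0.17 (SE, limma, higher in 2 of 2 genotypes, adjusted p = 5.99e-05). With the Tlr4-/- day 4 array left out and treatment as the only factor, the effects of Clec4n, Clec7a and Mrc1 were 2.20, 1.97 and 1.44, at limma adjusted p-values of 0.181, 0.339 and 0.164, in a fit that called 0 of all genes. Without the wild-type day 4 array they were 2.97, 2.49 and 1.89, at 0.0580, 0.115 and 0.0493, in a fit that called 18 genes as risen. The single day 4 array in these fits is assumed to vary like the untreated ones.

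The other FcR-coupled members did not follow Clec4n. Clec4d, which pairs with Clec4e, read 7.71 in Tlr4-/- and 8.28 in wild type at day 4, against 7.44 in Tlr4-/- and 8.57 in wild type when untreated. Its day 4 and untreated signals overlapped, and its bleomycin effect was -0.01 ± 0.17 (SE, limma adjusted p = 0.987). Clec4d was read by 1 probe set, whose _s_at suffix marks probes that can match more than 1 transcript. Another transcript's part in this signal is therefore unknown. The Clec4n probe set 1419627_s_at carries the same suffix, and 1425951_a_at, which ran in parallel with it, does not.

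Clec4e, the receptor of mycobacterial cord factor and of the dead-cell protein SAP130, stayed dim. Its probe sets averaged 5.37 in Tlr4-/- and 5.44 in wild type at day 4, against 5.06 in Tlr4-/- and 5.50 in wild type when untreated. The effect of bleomycin was 0.13 ± 0.15 (SE, limma without the floor, adjusted p = 0.710). Nothing in these dim signals separated day 4 from untreated pools.

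Clec4a2, the inhibitory member, averaged 5.77 in Tlr4-/- and 5.27 in wild type at day 4, against 5.43 in Tlr4-/- and 5.27 in wild type when untreated, with a bleomycin effect of 0.17 ± 0.14 (SE, limma without the floor, adjusted p = 0.598). Its 2 probe sets disagreed. The 1422013_at probe set read 5.70 in Tlr4-/- at day 4 and 4.75 in wild type at day 4, against 4.98 and 4.67 in the untreated Tlr4-/- and wild-type pools, so that the Tlr4-/- day 4 pool stood above the other 3. The 1425406_at probe set stayed between 5.79 and 5.89 on all 4 arrays.

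Between genotypes no receptor was called. Over all 9097 genes limma called 0 for genotype in either direction (0%), with 822 genes (9.04%) at an unadjusted p under 0.05. Clec4n, Clec7a and Clec4d were among those 822, with unadjusted limma p-values of 0.000150, 0.000425 and 0.000341 that adjusted to 0.153, 0.166 and 0.166. The 3 did not go the same way: the signals of Clec4n were higher in Tlr4-/- than in wild type at both times and those of Clec4d lower at both times. Differences above the spread at both times were seen in 7.2% of genes tested for higher and in 1.89% for lower signals in Tlr4-/-. Both Tlr4-/- signals of Clec4d lay below both wild-type signals, as in 9.31% of genes tested.

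Clec4n was higher in Tlr4-/- by 0.77 at day 4 and by 0.90 when untreated, and the limma estimate over both treatments was 0.84 ± 0.16 (SE). Clec7a was higher in Tlr4-/- by 0.52 at day 4 and by 1.28, or 2.43-fold, when untreated, with an estimate of 0.90 ± 0.19. For Clec4d the difference was -0.57 at day 4 and -1.13 when untreated, a 2.19-fold lower signal in the untreated Tlr4-/- pool, with an estimate of -0.85 ± 0.17. Each of these single differences exceeded the spread of 0.23 between arrays.

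Mrc1 differed by 0.44 at day 4 and by 0.01 when untreated, Clec4a2 by 0.50 and 0.16, and Clec4e by -0.07 and -0.44. Their limma adjusted p-values for genotype were 0.759, 0.706 and 0.740, the last pair from the fit without the floor. At the 2-fold line, 1 of the 6 receptors (Clec7a) was higher and 1 (Clec4d) lower in the untreated Tlr4-/- pool, beside 0.731% and 0.462% of the 18194 genes, and at day 4 the members past it were 0 higher and 0 lower, beside 0.0989% and 0.0495%. The probe sets of Clec4n straddled that line in the untreated pools, at 1.01 and 0.79.

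**Figure D2:**
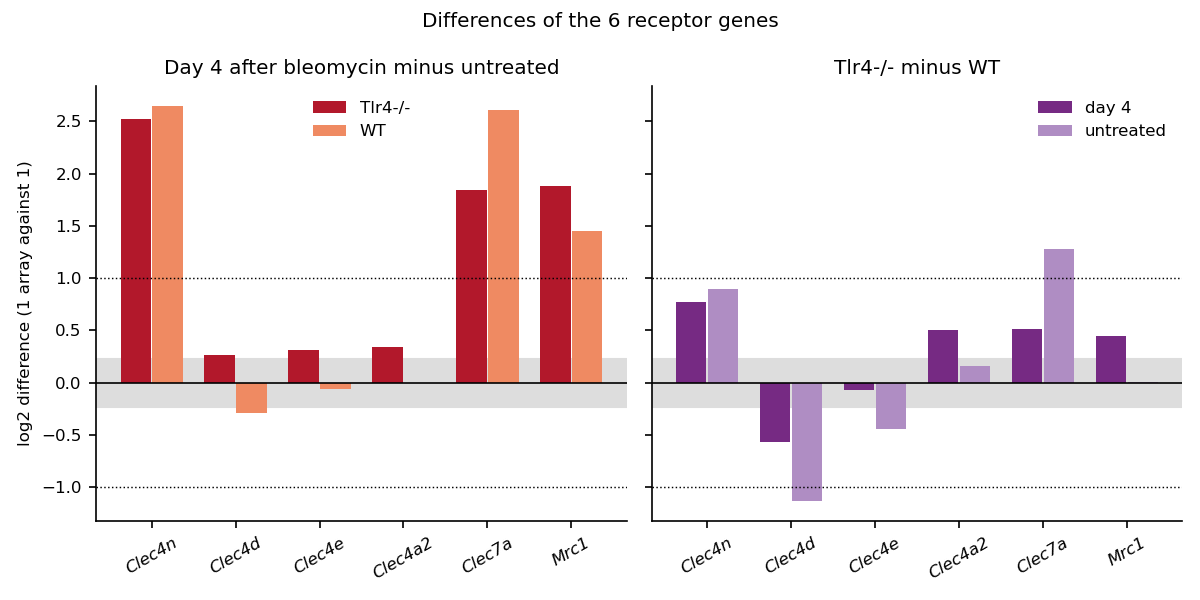
Log2 difference between single arrays (y axis) for the 6 receptor genes (x axis), as day 4 minus untreated in each genotype (left) and as Tlr4-/- minus wild type at each time (right). The grey band is the spread of 0.23 either side of 0 and the dotted lines mark 2-fold. Clec4n, Clec7a and Mrc1 pass 2-fold after bleomycin in both genotypes, while between genotypes Clec7a and Clec4d pass it in the untreated pools and none at day 4.

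The size of the bleomycin response differed between genotypes for some receptors, with 1 array per group and hence no test. Clec7a responded less in Tlr4-/- by 0.77, and its 2 untreated signals were 1.28 apart. Clec4d responded more in Tlr4-/- by 0.56 and Mrc1 by 0.44, while the response of Clec4n differed by -0.13. Clec4d alone of the 6 had opposite differences that each exceeded the spread of 0.23, at 0.27 in Tlr4-/- and -0.29 in wild type, as did 3.77% of genes tested. The spread for such a difference of responses was 0.32 in the limma model, a value that itself comes from these differences over all genes.

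Among adaptors and signalling genes, Fcer1g, Tyrobp and Malt1 rose after bleomycin, and no kinase or transcription factor gene of the list was called. The signalling list held 28 genes, of which 23 were on the array and 16 passed the floor. Bleomycin raised 3 of these 16 and lowered 0, beside 7.18% of all genes tested that rose and 2.53% that fell. The median effect was 0.21, beside 0.04 over all genes. Fcer1g, the FcR gamma chain that carries the signal of Clec4n, Clec4d and Clec4e, read 10.59 in Tlr4-/- and 10.21 in wild type at day 4, against 8.71 and 8.91 in the untreated Tlr4-/- and wild-type pools, and rose by 1.59 ± 0.17 (SE, limma adjusted p = 0.000110). Tyrobp, the related adaptor DAP12, rose by 1.53 ± 0.16 (limma adjusted p = 7.14e-05) and the paracaspase gene Malt1 by 1.16 ± 0.16.

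Syk, the kinase that the activating receptors share, had a mean below the floor, at 7.17 in Tlr4-/- and 7.15 in wild type at day 4, against 6.68 and 6.85 in the untreated Tlr4-/- and wild-type pools. Bcl10, the partner of Malt1, had an effect of 0.35 ± 0.16 and Relb, an NF-kB subunit, of 0.55 ± 0.17, at limma adjusted p-values of 0.213 and 0.0610. Ptpn6, the phosphatase recruited by Clec4a2, had an effect of 0.20 ± 0.16. Plcg2, a phospholipase downstream of Syk, differed after bleomycin by -0.61 in Tlr4-/- and 0.63 in wild type, and read 8.71 in the untreated Tlr4-/- pool and 6.83 in the untreated wild-type pool.

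Cytokine and early genes that these receptors can induce in macrophages moved in mixed directions. Of 18 listed genes 11 passed the floor, and limma called 3 as risen and 1 as fallen, with a median effect of 0.29. Over all genes tested, 7.18% rose and 2.53% fell. The interleukin gene Il1b rose by 1.24 ± 0.16, the chemokine genes Ccl3 by 1.18 ± 0.18 and Ccl2 by 0.92 ± 0.16, and the early growth response gene Egr1 fell by 0.85 ± 0.16. Il6, whose mean over the 4 arrays was below the floor, had an effect of 1.71 ± 0.19 in the fit without it (limma adjusted p = 0.0250). Toll-like receptors induce many of these genes as well.

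Other C-type lectin receptors were mostly dim in these cells. Only 4 of the 26 listed genes on the array passed the floor. Mrc2, the relative of Mrc1 known from fibroblasts, fell by 0.58 ± 0.16 (SE, limma adjusted p = 0.0352), and Clec11a, Cd302 and Thbd were not called, with effects of 0.15, 0.36 and 0.32. The oxidised lipoprotein receptor gene Olr1, with a mean below the floor, read 7.54 in Tlr4-/- and 6.82 in wild type at day 4, against 5.51 and 5.33 in the untreated Tlr4-/- and wild-type pools. Its effect in the fit without the floor was 1.76 ± 0.17 (limma adjusted p = 0.0186).

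Clec4n, Clec4d and Clec4e lie next to each other on mouse chromosome 6, and RefSeq places Clec4a1, Clec4a3, Clec4a4, Clec4b1, Clec4a2 and Clec4b2 on 1 side of them in that order. Beside Clec4a2, described above, Clec4a3 and Clec4b1 of these neighbours had probe sets under a symbol of their own. Clec4a3, another DCIR-type gene, read 6.46 in Tlr4-/- and 5.81 in wild type at day 4, against 4.91 and 4.47 in the untreated Tlr4-/- and wild-type pools, and its effect without the floor was 1.45 ± 0.13 (SE, limma adjusted p = 0.0169). Clec4b1 stayed between 4.53 and 4.79. Neighbours in this cluster thus included genes that rose beside genes that were not called. From Clec4a2 to Clec7a, 39 other protein-coding genes on chromosome 6 passed the floor, of which 3 rose and 1 fell, so that 7.69% rose beside 7.18% of all genes. Tlr4 itself is on chromosome 4.

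Macrophage, monocyte and pan-leukocyte markers rose beside Clec4n, Clec7a and Mrc1, and dendritic cell markers did not pass the test. In these pools, more leukocytes among the sorted cells and more receptor RNA per cell cannot be told apart. Of the alveolar macrophage list, which includes Mrc1, 10 of 14 genes on the array passed the floor and 9 rose, beside 7.18% of all genes tested. Among them were the integrin gene Itgax by 2.12 ± 0.17 and the chitinase-like gene Chil3 by 1.55 ± 0.16. Itgax, at 6.23 in both untreated pools, passed the floor through its day 4 signals, so counts among genes that passed say little by themselves. Of all 14, 11 were higher after bleomycin in both genotypes, as were 30% of all 18194 genes. The linear signals of the list summed to 9237 in Tlr4-/- and 7407 in wild type at day 4, against 3656 and 3250 in the untreated Tlr4-/- and wild-type pools. Its median effect was 1.13.

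Of the monocyte and interstitial macrophage list, 8 of 18 genes passed the floor and 6 rose, beside 7.18% of all genes tested. C1qb, a subunit of complement C1q, rose by 2.73 ± 0.16 and C1qc by 2.32 ± 0.18. C1qc, at 6.19 and 6.44 in the untreated Tlr4-/- and wild-type pools, also passed the floor through its day 4 signals. Of all 18, 13 were higher after bleomycin in both genotypes, beside 30% of all 18194 genes. The linear signals of this list summed to 7061 and 6148 in the Tlr4-/- and wild-type day 4 pools, against 3718 and 3874 in the untreated Tlr4-/- and wild-type pools. The macrophage gene Adgre1 and the monocyte receptor gene Ccr2 were below the floor on all 4 arrays, at no more than 6.21 and 6.08, with effects of 1.26 and 0.89 in the fit without it (limma adjusted p = 0.0244 and 0.0470). Pan-leukocyte markers rose in 5 of the 8 that passed, led by the integrin gene Itgb2 at 2.01 ± 0.18, beside the same 7.18%. Of the 10 on the array, 8 were higher after bleomycin in both genotypes. Their linear signals summed to 7348 in Tlr4-/- and 7074 in wild type at day 4, against 6534 and 5502 when untreated. Lcp1, the brightest of the 10 with a mean of 11.81, weighs most in these sums and had an effect of -0.14. Ptprc, which encodes CD45, had an effect of 0.53 ± 0.18 and was not called (limma adjusted p = 0.0901).

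Most markers of other leukocytes had means below the floor. The counts that follow stand beside 7.18% of all genes that rose and 2.53% that fell. Neutrophil markers rose in 2 of the 4 that passed, Ltf and Lcn2, which epithelium also makes, and the neutrophil receptor genes Csf3r and Cxcr2 stayed below the floor. Dendritic cell markers rose in 0 of 4 (median effect -0.02), with Flt3 and Xcr1 below the floor on all 4 arrays, and lymphocyte markers in 1 of 2, Cd2. Cd2 was the only 1 of the 12 lymphocyte markers on the array with a higher signal after bleomycin in both genotypes, and their median difference was -0.17 in Tlr4-/- and -0.29 in wild type. The AEC2 list had 0 of 14 genes that rose and 2 that fell, and its linear signals summed to 104157 in Tlr4-/- and 111941 in wild type at day 4, against 116174 and 117496 when untreated. What part these shifts had in the rise of Clec4n, Clec7a and Mrc1 was not tested.

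Marker signals also differed between genotypes. Like Clec4n and Clec7a, 8 of the 14 alveolar macrophage markers on the array were higher in Tlr4-/- at both times. So were 7 of the 10 pan-leukocyte markers, beside 28.3% of all 18194 genes. At 6 of 18, the monocyte and interstitial macrophage markers were close to that share. These counts take differences of any size. Mrc1 is among the 8 macrophage markers, but its difference of 0.01 when untreated was inside the spread of 0.23. Siglecf, a surface receptor of alveolar macrophages and eosinophils, read 7.08 in the untreated Tlr4-/- pool and 4.79 in the untreated wild-type pool. At day 4 it read 7.87 in Tlr4-/- and 7.56 in wild type. Its mean of 6.83 was below the floor, and its genotype effect was not called in the fit without it (limma adjusted p = 0.693). Like Clec4d, 7 of the 10 neutrophil markers were lower in Tlr4-/- at both times, and so were 8 of the 14 AEC2 markers and 9 of the 18 listed cytokine and early genes, beside 26.5% of all genes. S100a9, a calgranulin of neutrophils, differed by -0.80 at day 4 and -0.61 when untreated, and S100a8 by -0.25 and -0.43. What part neutrophil RNA had in the Clec4d signal was not tested.

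**Figure D3:**
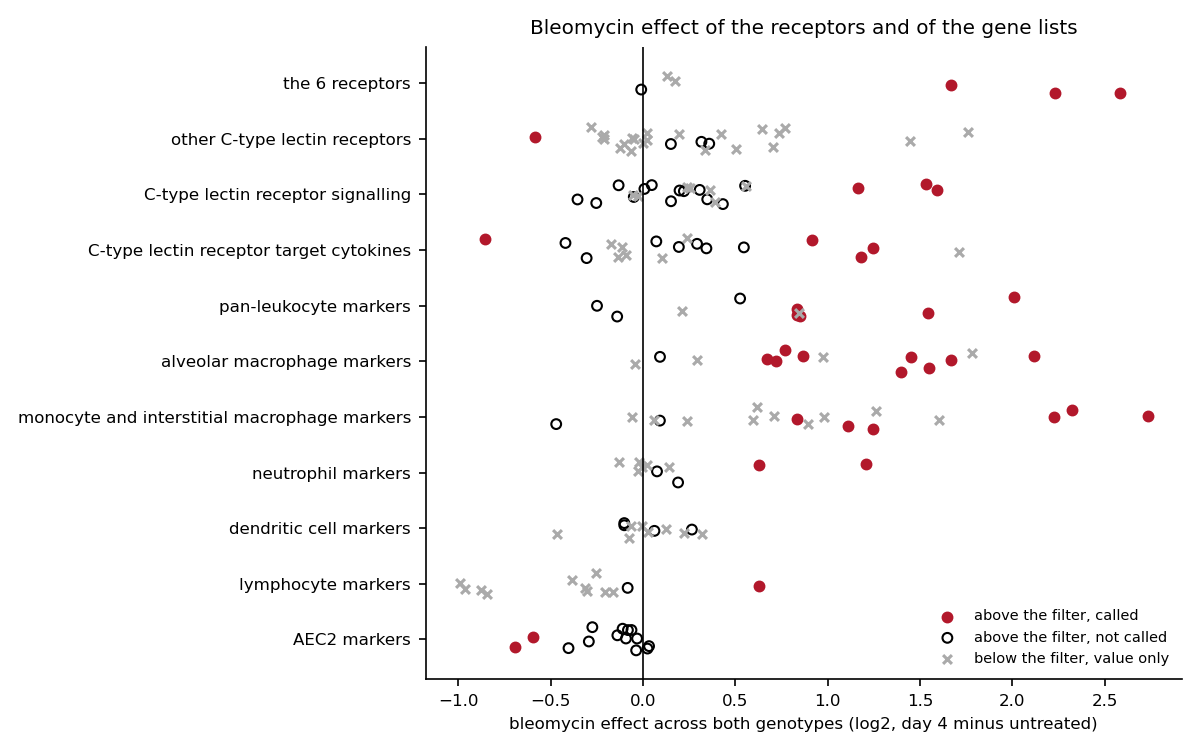
Bleomycin effect across both genotypes (x axis, log2, day 4 minus untreated) for the 6 receptors and for each gene of 10 lists (rows), 1 point per gene. Filled points passed the floor and were called by limma, open points passed it and were not called, and crosses lay below it, with values from the fit without the floor. The 3 receptors that rose lie in the range of the macrophage lists, and the dendritic cell and AEC2 lists lie near 0.

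Genes with profiles most like those of the receptors were ranked by the root mean square distance between profiles over the 4 arrays, each centred on its own mean, among the genes past the floor. With only 4 arrays, many genes share any given shape. Nearest to Clec4n were the calcium-binding gene S100a4 (distance 0.09), C1qb (0.13) and the tight junction gene Cldn4 (0.14), and Clec7a ranked 7 of 9096. Nearest to Clec7a were the p53-responsive gene Ddit4l (0.14), the nuclear pore gene Aaas (0.18) and the interferon-induced gene Ifit1 (0.18). These neighbours included genes that are not specific to leukocytes.

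Mrc1 lay nearest to Cybb, the phagocyte NADPH oxidase subunit (0.08), Fcer1g (0.08) and Tyrobp (0.09). Like Mrc1, these 3 differed little between the untreated pools, by 0.03, -0.19 and 0.16. Clec4d lay nearest to Glis2 (0.11), the airway mucin gene Muc5b (0.13) and Scaf1 (0.13), and the other 3 receptors were among the genes furthest from it, at ranks 9029 to 9092 of 9096.

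**Figure D4:**
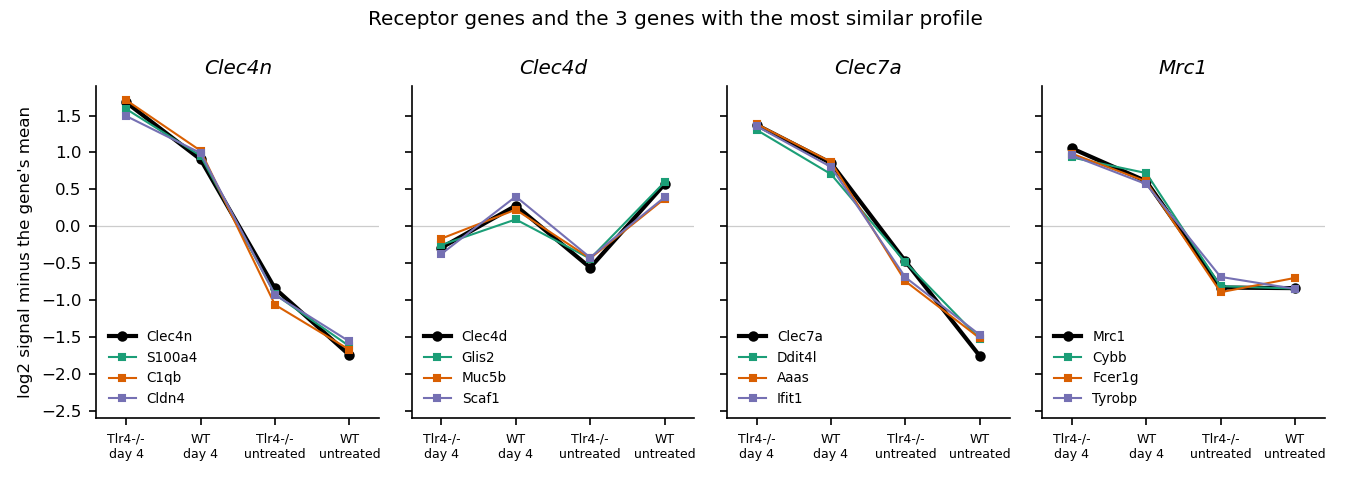
Log2 signal minus the gene's own mean (y axis) on the 4 arrays (x axis) for the 4 receptors above the floor (black) and the 3 genes nearest to each (coloured). Clec4n and Clec7a fall stepwise across the arrays as ordered, Mrc1 and its neighbours are level between the untreated pools, and Clec4d and its neighbours are lowest in the Tlr4-/- pools.

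Promoter sequence was compared because Clec7a and Mrc1 both rose after bleomycin and Clec4d, next to Clec4n, was not called. RefSeq (GRCm38.p6) sequence matched 5 of the 6 members, all but Clec4n. The 250 bases before the start site were searched on both strands for motifs of PU.1 (GAGGAAG), C/EBP (TTGCNNAA), AP-1 (TGANTCA) and NF-kB, and no match overlapped another. Capitals mark matches to the PU.1 letters or their reverse complement. Clec7a at chr6:129472786-129473035, minus strand, and Mrc1 at chr2:14229164-14229413, plus strand, are shown as receptors that rose, and Clec4d at chr6:123261857-123262106, plus strand, as one that was not called.
Clec7a: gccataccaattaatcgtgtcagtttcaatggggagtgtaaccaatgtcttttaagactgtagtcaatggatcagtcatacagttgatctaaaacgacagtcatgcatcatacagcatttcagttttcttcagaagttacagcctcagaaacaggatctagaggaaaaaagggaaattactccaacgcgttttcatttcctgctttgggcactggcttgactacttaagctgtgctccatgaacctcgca
Mrc1: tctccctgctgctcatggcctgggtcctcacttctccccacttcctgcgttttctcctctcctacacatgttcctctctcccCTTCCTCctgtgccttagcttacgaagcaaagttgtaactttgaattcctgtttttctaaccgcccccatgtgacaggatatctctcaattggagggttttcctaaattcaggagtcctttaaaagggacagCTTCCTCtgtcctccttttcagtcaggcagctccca
Clec4d: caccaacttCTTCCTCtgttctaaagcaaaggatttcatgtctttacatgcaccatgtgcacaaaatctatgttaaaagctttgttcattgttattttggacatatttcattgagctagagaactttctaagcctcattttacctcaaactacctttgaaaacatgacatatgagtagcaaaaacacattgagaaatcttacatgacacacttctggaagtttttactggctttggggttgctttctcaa

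Counted from the start site, Mrc1 held 2 matches to the PU.1 letters, at -168 and -36, Clec4d held 1, at -241, and Clec7a held 0. Of all 32851 RefSeq promoter windows of this length, 10.6% held this motif. Clec4e held 1 C/EBP match, found in 9.56% of all windows, and no member held the AP-1 or NF-kB letters, found in 6.75% and 1.41%. These matches are a description of letters and did not follow the split between receptors that rose and those that were not called.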

How the data were processed

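One value table was used, with 1 column per array. Its software, normalization and log base are not given in the sources used here, and the deposited table was taken to hold log2 signal for each probe set, judged by its range and by quantiles close between arrays (array medians 6.93 to 6.98). Kits for amplification and biotin labelling were used, per the labels' protocols. Of 45101 probe sets, 34958 carried 1 symbol in the platform annotation, 932 several and 9211 none, and 34754 of the 34958 were matched to RefSeq by Entrez identifier. Only probe sets with 1 symbol were used.

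Probe sets were averaged per gene (18194 genes), and 9097 genes with a mean signal above the floor of 7.05 entered the test. limma 3.58.1 in R 4.3.3 (lmFit, eBayes, trend and robust off) was fitted with treatment and genotype as additive factors, so that 1 residual degree of freedom per gene remains and unequal responses of the genotypes count as error. Benjamini-Hochberg adjustment ran over all genes tested, with calls at an adjusted p under 0.05. Differences between 2 arrays have no test and a line at 2-fold. With 1 array per group, the p-values rest on how far the genotypes' responses differed, in each gene and over all genes. They do not measure the spread between repeated pools, and the number of arrays limits the precision. Before use, the fitting script was tested on simulated data with known changes.

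The members and lists were chosen with earlier results of these data known. Named genes were the 6 members, the 3 nearest profiles to each (predicted genes, segments, Y-linked genes and Xist passed over), up to 4 genes per list by the size of the bleomycin effect, and neighbours on chromosome 6. Other list genes, and Syk, Bcl10, Relb, Ptpn6, Plcg2, Adgre1, Ccr2, Ptprc, S100a8, S100a9, Csf3r, Cxcr2, Flt3, Xcr1 and Eif2s3y, were named after their values were seen.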

Additional observations from a re-analysis of the deposited data

Results flagged for a closer look

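The bleomycin differences of Clec4d went opposite ways in the genotypes, with 0.27 in Tlr4-/- and -0.29 in wild type, each just larger than the spread of 0.23 between arrays. Such opposite differences, each larger than the spread, were seen in 3.77% of the 9097 genes. Those of the dim gene Clec4e were 0.32 in Tlr4-/- and -0.059 in wild type. Neither difference between genotypes was tested.

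A probe set annotated to both Clec4b1 and Clec4a2 was left out of the members because it carries 2 symbols. It read 7.32 in Tlr4-/- and 6.24 in wild type at day 4, against 6.31 in Tlr4-/- and 6.07 in wild type when untreated, a bleomycin difference of 1.01 in Tlr4-/- and 0.17 in wild type. Its pattern was that of the Clec4a2 probe set 1422013_at, at 0.72 and 0.08, and not that of 1425406_at, at -0.04 and -0.08.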

How the results depend on the processing

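The 3 receptors that rose after bleomycin were called under each alternative that kept all 4 arrays: no floor, a floor at the 25th percentile, the brightest probe set per gene, each probe set on its own, quantile normalization, centring on array medians, and limma with trend and robust on. With those settings Clec4n ranged from 2.50 to 2.67, Clec7a from 2.22 to 2.23 and Mrc1 from 1.64 to 1.67. With 1 array left out, 0 to 3 receptors were called as risen, 0 without the Tlr4-/- day 4 array and 1 without the wild-type day 4 array. The count over all genes that rose (653) was 319 without the floor, 279 with the brightest probe set and 378 after centring, and the count that fell (230) was 48, 138 with the lower floor, 62 and 106. With 1 array left out, 0 to 802 genes rose and 0 to 227 fell, with 0 in either direction without the Tlr4-/- day 4 array, 18 and 3 without the wild-type day 4 array, and 375 risen without the untreated wild-type array. With 3 arrays only 1 factor can be fitted, so the other factor enters the estimate by construction, and the sign changes that follow say nothing about the stability of these differences. The bleomycin effect of Clec4d ranged from -0.58 to 0.55, above 0 without the Tlr4-/- day 4 array (0.27) or the untreated wild-type array. The genotype effect ranged from -0.49 to 2.16 for Clec4n, -0.41 to 2.21 for Clec7a and -0.72 to 1.17 for Mrc1, below 0 without either of those same arrays, and from -0.99 to -0.70 for Clec4d. In the untreated pools the receptors past 2-fold and higher in Tlr4-/- numbered 2 with the brightest probe set, with each probe set on its own and at a 1.5-fold line, which 1 receptor passed at day 4. No paired analysis was possible because each group has 1 array and the labels carry no replicate numbers. Dim signals limit what Clec4e and Clec4a2 can show.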
